A study of Mus musculus with 10 samples.

Results

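Of the 31019 histone H3 lysine 9 crotonylation (H3K9cr) peaks called on chromosomes 1 to 19 of control neural stem and progenitor cells, 4162 touched by at least 1 bp a control peak of H3 lysine 27 acetylation (H3K27ac) and touched no H3K9cr peak after crotonate. These 4162 sites, called lost H3K9cr sites here, are the subject of the account. The word lost refers to the peak lists alone, so that a site just under the calling limit after crotonate also counts as lost. The sites were chosen by measured values, those of the control H3K9cr list, its comparison with the crotonate H3K9cr list, and the control H3K27ac list. What those lists hold at the sites is therefore given as a description, with no test. Positions are those of the build GRCm38, counted from 1 with both ends included. The H3K27ac list after crotonate, the lists of H3 lysine 4 trimethylation (H3K4me3) and H3 lysine 27 trimethylation (H3K27me3), and the place of the sites among genes were not used in the choice.

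Crotonylation and acetylation are acyl groups that the same acyltransferases, among them p300, can attach to histone lysines from crotonyl-CoA and acetyl-CoA, and both are read by proteins of active chromatin. H3K27ac marks active enhancers and promoters, H3K4me3 marks promoters, and H3K27me3 is set by Polycomb repressive complex 2 at silent developmental genes. In neural progenitors, enhancers far from promoters carry much of the regulation of the genes of cell identity, and H3K27ac without H3K4me3 is the usual sign of such an enhancer. Crotonate, a short-chain fatty acid, raises the supply of crotonyl-CoA when it is given to cells.

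The cells were taken from forebrains of E13.5 mouse embryos and grown with epidermal growth factor and fibroblast growth factor, each at 20 ng/ml. No strain, sex or genetic change is given in the labels. The control cultures received water and the treated ones 10 mM crotonate for 24 h, and chromatin was precipitated without crosslinking (native chromatin immunoprecipitation). The labels name 10 libraries. Peak lists of 8 of them were used. Each mark in each treatment is 1 library, so no difference between treatments has a replicate check and none was tested. Catalogue numbers of the antibodies matched between treatments, but for H3K4me3 and H3K27me3 the vendor label did not, and crotonate libraries of H3K9cr and H3K27ac carry no vendor label. A weaker mark in every cell and a mark in fewer cells cannot be told apart in such bulk libraries.

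Read depth is unknown. As a stand-in, the lowest background pileup that any peak of a list implied was 3.74 (control) and 3.20 (crotonate) for the H3K9cr libraries, and 3.11 and 2.68 for the H3K27ac libraries. At the median, the summit pileup of H3K9cr peaks was 74 and 41, and that of H3K27ac peaks 23 and 17. Pileups of different lists are not on a shared scale, so a lower crotonate pileup is not by itself a fall of the mark. On chromosomes 1 to 19 the crotonate lists held more peaks than the control lists, with 31861 against 31019 for H3K9cr and 58865 against 51780 for H3K27ac. The part of these library differences in the results was not tested. Of 10 marker genes of neural stem and progenitor cells, 9 had control peaks of both H3K4me3 and H3K27ac at their ends, and Msi1 had neither. None of the 5 markers of microglia and blood (Ptprc, Hbb-bs, Cx3cr1, Aif1 and Csf1r) had either mark, 5 and 4 of 6 neuronal markers did, 2 and 3 of 4 astrocyte markers, 4 and 3 of 4 oligodendrocyte lineage markers, 1 of 4 endothelial markers for both, and 3 and 1 of 4 mesenchymal markers.

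Most lost sites lay far from promoters, and the few promoters among them show what kind of sequence they reached. The RefSeq table used (GRCm38.p6) lists 20062 promoter windows of protein-coding genes on the autosomes it holds. Each window is taken here as the 250 bases before a start. A lost site touched 30 of these windows, at 27 genes. The next sequences are windows that lay wholly under a lost site, followed by that of Sox2, the transcription factor that marks neural stem cells, under a kept H3K9cr peak, and they were picked for display after their values were seen. Each is written 5′ to 3′ on the strand of the gene, with the CG dinucleotides in capitals.
Gjc3, a connexin of oligodendrocytes, chr5:137963099-137963348, minus strand: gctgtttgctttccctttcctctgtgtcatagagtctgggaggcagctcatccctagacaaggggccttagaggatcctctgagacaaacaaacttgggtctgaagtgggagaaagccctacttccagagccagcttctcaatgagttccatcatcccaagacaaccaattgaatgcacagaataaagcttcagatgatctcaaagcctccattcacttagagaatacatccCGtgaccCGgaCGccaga
Aldoc, the brain aldolase of astrocytes, chr11:78322823-78323072, plus strand: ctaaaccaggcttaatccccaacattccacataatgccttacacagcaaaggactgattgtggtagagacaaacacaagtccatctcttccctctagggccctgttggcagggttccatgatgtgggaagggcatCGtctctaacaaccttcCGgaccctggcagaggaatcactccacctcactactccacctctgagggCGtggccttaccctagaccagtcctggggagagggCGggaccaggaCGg
Cibar2, chr8:120177470-120177719, minus strand: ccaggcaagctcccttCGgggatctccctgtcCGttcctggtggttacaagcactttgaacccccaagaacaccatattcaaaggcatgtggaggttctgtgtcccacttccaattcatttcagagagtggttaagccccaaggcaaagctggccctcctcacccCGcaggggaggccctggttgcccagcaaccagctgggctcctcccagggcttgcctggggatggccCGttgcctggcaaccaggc
Hdac7, a class II histone deacetylase, chr15:97814864-97815113, minus strand: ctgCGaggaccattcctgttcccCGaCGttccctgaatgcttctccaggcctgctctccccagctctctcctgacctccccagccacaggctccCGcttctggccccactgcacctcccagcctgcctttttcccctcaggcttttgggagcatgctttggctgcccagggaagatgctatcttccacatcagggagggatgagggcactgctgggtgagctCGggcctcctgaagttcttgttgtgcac
Slc6a9, a glycine transporter, chr4:117855297-117855546, plus strand: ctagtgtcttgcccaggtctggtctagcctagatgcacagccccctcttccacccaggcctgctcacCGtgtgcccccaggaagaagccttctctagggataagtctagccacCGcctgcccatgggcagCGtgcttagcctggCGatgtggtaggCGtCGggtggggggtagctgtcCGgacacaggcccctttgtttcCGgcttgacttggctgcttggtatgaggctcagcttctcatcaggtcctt
Sox2, kept H3K9cr, chr3:34649745-34649994, plus strand: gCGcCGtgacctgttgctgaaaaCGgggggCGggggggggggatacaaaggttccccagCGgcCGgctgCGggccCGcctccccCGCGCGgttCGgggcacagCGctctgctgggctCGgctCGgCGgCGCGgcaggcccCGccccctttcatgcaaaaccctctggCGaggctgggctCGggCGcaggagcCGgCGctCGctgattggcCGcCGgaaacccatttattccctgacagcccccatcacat

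The Gjc3 window held 3 CG dinucleotides, those of Aldoc and Hdac7 5 each, that of Cibar2 4 and that of Slc6a9 8, against 27 in the window of Sox2. The windows shown are not the extremes of lost sites: among those wholly under a lost site the count ran from 1 at Mtmr2 to 11 at Zmynd10. Kept windows varied too, with 16 at Notch1 and 15 at Nes. Over the 30 windows touched by a lost site the median was 5 CG (quartiles 2.25 and 6), against 10.0 in all listed windows and 17.0 in the 11299 windows touched by a kept H3K9cr peak with H3K27ac. By the median, the windows touched by lost sites were thus CG-poor. The kept peaks in this comparison were of all strengths, and weak kept peaks were not set apart. The part of H3K9cr strength in the contrast was not tested. The letters TATAAA, on either strand, stood in 4 of the 30 windows (13.3%), against 11.7% of all windows and 5.27% of those under kept peaks. CCAAT, on either strand, stood in 7 (23.3%), against 35.3% and 35.8%. Both motifs were counted separately, overlapping or not, and 30 windows give imprecise shares.

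These promoters differed in what they carried after crotonate. At Gjc3 the H3K9cr peak was 1104 bp wide with a summit pileup of 44. The H3K27ac peak over it had a pileup of 37 in control and 20 in crotonate, and its H3K4me3 peak, with a pileup of 24 in control, had no counterpart in crotonate. At Aldoc, where the site of 1729 bp also reaches Spag5, H3K27ac was called in both treatments, with pileups of 31 and 21, and so was H3K4me3, with 44 and 25. Cibar2 had a control H3K27ac pileup of 20 and no H3K27ac peak after crotonate, while H3K27me3 was called there in both treatments. Hdac7 combined a weak H3K9cr peak, with a pileup of 14, with strong H3K27ac, whose pileup was 124 in control and 76 in crotonate. At Slc6a9 the H3K9cr pileup was 15 and the H3K27ac pileup 32 and 33. The kept H3K9cr peak that held the window of Sox2 was 31666 bp wide, with a summit pileup of 910. The H3K27ac pileups there were 190 and 152. These are summit values of the peaks and need not be those at the window.

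The lost sites were weak, narrow peaks of H3K9cr inside H3K27ac peaks of middling to high rank. Among control H3K9cr peaks that touched H3K27ac, 4162 of 27802 (15.0%) were lost, close to the 15.1% of all 31019 and the 16.0% (514 of 3217) of those without H3K27ac. The median −log10 q of a lost site stood at percentile 13.8 of the control H3K9cr list, against 61.8 for the 23640 H3K9cr peaks that touched control H3K27ac and were kept. The median fold enrichment over the local background, the authors' own value, was 4.22 (range 2.14 to 29.3) against 31.8. No lost site ranked above percentile 60.2. The sites were 256 to 2278 bp wide with a median of 400 bp, against 1474 bp for the kept peaks, and 65.4% were under 500 bp. All together they covered 2.08 Mb.

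The H3K27ac peaks over the lost sites were stronger, within their own list, than the H3K9cr peaks were within theirs. The strongest control H3K27ac peak touched by a site had a median percentile of 61.2, a fold enrichment of 7.52 and a width of 1434 bp, about the width of a kept H3K9cr peak. Over all kept H3K9cr peaks these H3K27ac medians were higher, at percentile 77.6, fold 14.6 and 1720 bp. Of the lost sites, 79.8% lay wholly inside control H3K27ac, and the H3K9cr summit lay inside it at 97.8%. Matched only to kept H3K9cr peaks of the 3 weakest deciles of the list, where 3692 of the 4162 sites fall, the H3K27ac percentile was 59.3 for lost and 54.2 for kept peaks, and the H3K27ac width 1400.5 and 1181 bp. The 4162 sites lay in 3924 H3K27ac peaks, of which 267 held more than 1 site and the fullest held 4, so neighbouring sites are not independent.

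**Figure D1:**
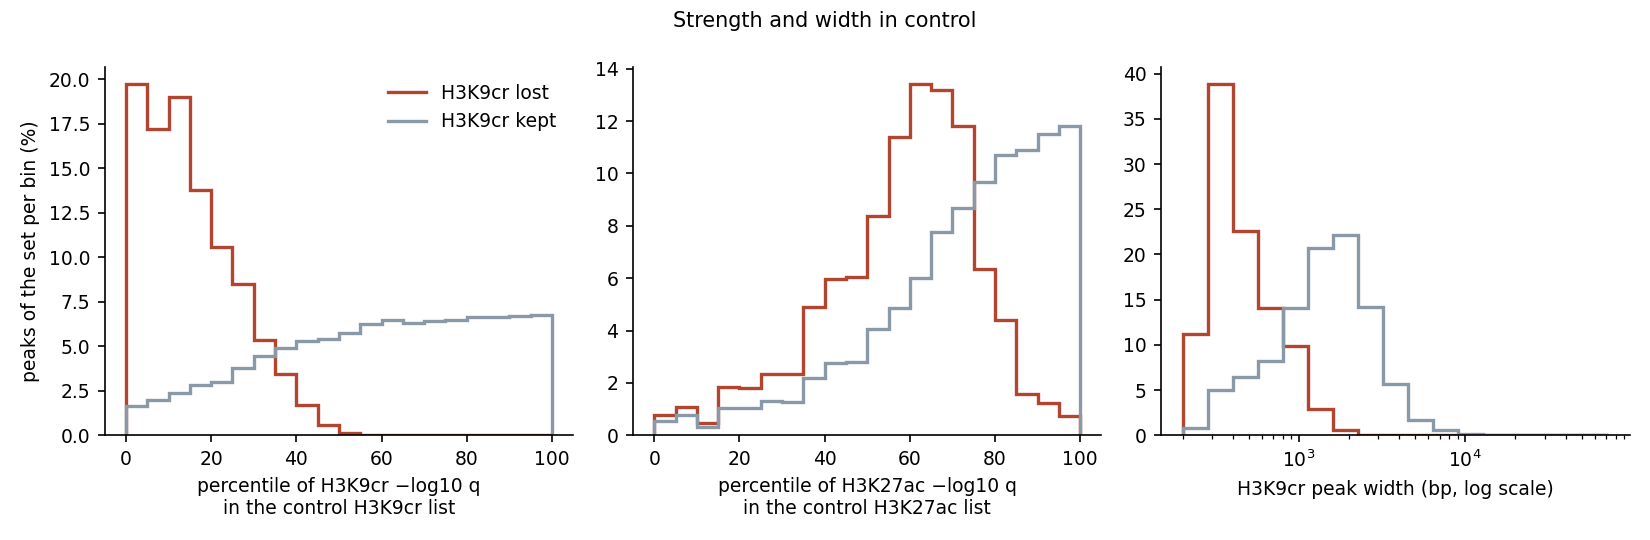
Histograms of the percentile of the H3K9cr peak in the control H3K9cr list (left), the percentile of the strongest control H3K27ac peak touched (middle) and the H3K9cr peak width in bp on a log axis (right), each as the percent of the set per bin, for 4162 lost and 23640 kept H3K9cr peaks with control H3K27ac. The lost peaks crowd at the low end of the H3K9cr list (median percentile 13.8) and at small widths (median 400 bp), while their H3K27ac peaks centre on percentile 61.2.

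The sites at the edge of the rule show how much a few bases decide. The smallest overlap with control H3K27ac among the sites was 1 bp, in the body of Creb5, followed by 4 bp in Dbx2, 8 bp in Bach2, 21 bp in Igsf21 and 23 bp at a site 36319 bp from Tuba1a. Just outside, lost H3K9cr peaks 2182 bp from Zhx1 and in Ahdc1, Dennd1a, Slit3 and Dclk3 missed a control H3K27ac peak by 13, 31, 32, 35 and 53 bp. On the side of H3K9cr, sites 4386 bp from Atp5g2, 28944 bp from Gjd2 and 109111 bp from Pcdh18 lay 2, 4 and 4 bp from a crotonate H3K9cr peak. A site in Slx4ip lay 5 bp from such a peak. Peaks 149593 bp from Vldlr, 53081 bp from Apcdd1 and 358890 bp from Efnb2 counted as kept through overlaps of 3, 6 and 9 bp. Peaks in Pdzph1 and Ppp2r2b did so through 10 and 11 bp. Such edges were not typical: the median distance from a site to the nearest crotonate H3K9cr peak was 11496 bp, 591 sites (14.2%) had one within 1 kb, and 33.3% within 5 kb.

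H3K27ac was still called after crotonate at most of the sites. Of the 4162 lost H3K9cr sites, 3391 touched a crotonate H3K27ac peak, which is 81.5% (exact 95% interval 80.3 to 82.6%), and 771 did not. Over all 27802 control H3K9cr peaks with H3K27ac the share was 93.5%, and over the kept ones 95.6% (95.3 to 95.8%). For scale, 74.7% of all control H3K27ac peaks touched a crotonate H3K27ac peak. A touch of 1 bp is easier for a wide peak, so the summit gives a second view: the H3K9cr summit lay inside crotonate H3K27ac at 74.9% (73.6 to 76.2%) of lost and 93.9% (93.5 to 94.2%) of kept sites. These intervals cover counting error only.

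Less of the sites lay under H3K27ac after crotonate than in control, where the choice of sites by control H3K27ac sets the cover high, so the fall is a description and not a measure of loss. In control, 1.98 of the 2.08 Mb (95%) lay under H3K27ac, and in crotonate 1.47 Mb (70.4%). Over the kept H3K9cr peaks, also chosen by touching control H3K27ac, the same shares were 89.8% and 80.1%. The share of lost sites wholly inside an H3K27ac peak was 79.8% in control and 45% in crotonate. The median width of all H3K27ac peaks was 881 bp in control and 625 bp in crotonate, and the part of that narrowing in the covered length was not tested. Where H3K27ac was called in both, the H3K27ac peaks had a median pileup of 36 in control and 22 in crotonate, beside list medians of 23 and 17, and stood at median percentiles of 63.8 and 61.0 of lists that differ in length.

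**Figure D2:**
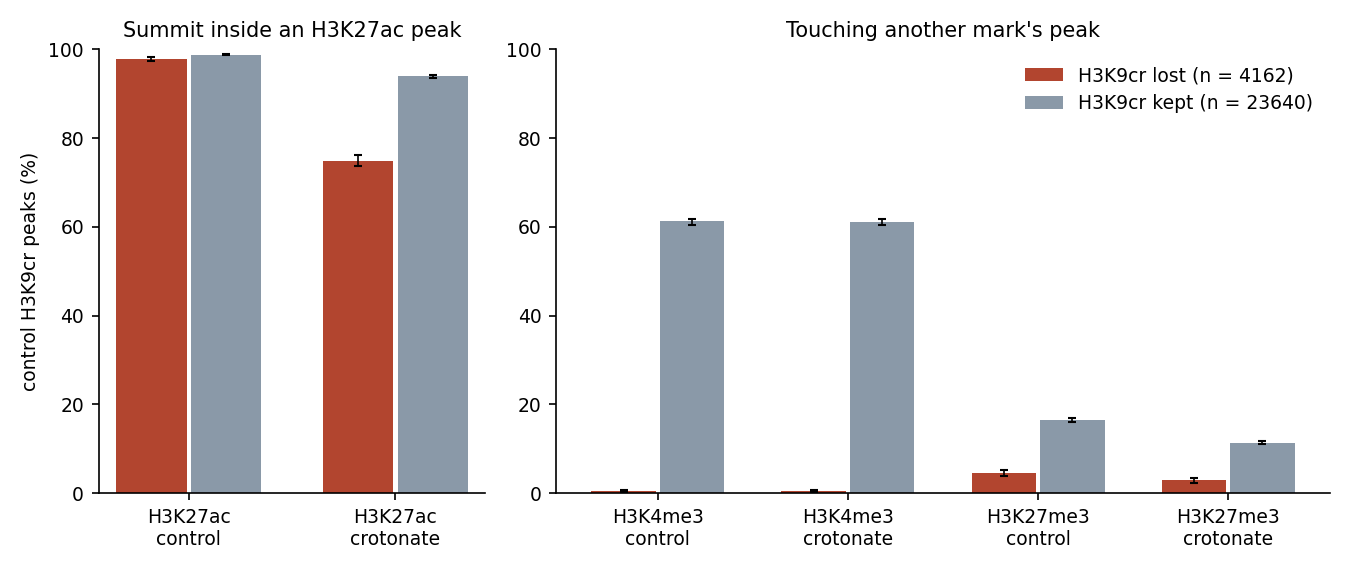
Percent of control H3K9cr peaks with control H3K27ac whose summit lay inside an H3K27ac peak (left) and that touched an H3K4me3 or H3K27me3 peak (right), in control and crotonate, for lost and kept H3K9cr peaks, with exact 95% intervals as error bars. The control H3K27ac bars are set by the choice of peaks that touch control H3K27ac, the crotonate ones stand at 74.9% for lost and 93.9% for kept peaks, and the lost sites touch H3K4me3 at 0.505% and 0.481%, and touch H3K27me3 at 4.59% and 2.86%.

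Lost sites kept H3K27ac less often than kept H3K9cr peaks of the same decile of strength in deciles 1 to 4. By decile of H3K9cr −log10 q, from the weakest to the fifth, the share with crotonate H3K27ac was 78.4, 81.5, 83.5, 86.6 and 92.7% at lost sites and 83.4, 87.7, 89.2, 91.8 and 93.3% at kept ones. The exact intervals of lost and kept peaks did not meet in deciles 1 to 4 and overlapped in the fifth, which held 96 lost sites. Weighted to the deciles of the lost sites, kept peaks had H3K27ac after crotonate at 86.9%, so that the lost sites stood 5.45 points lower (lost minus kept, −5.45). Measured by the summit and weighted in the same way, the difference was −6.52 points. Deciles match strength only coarsely: over the 3 weakest, the median H3K9cr percentile was 12.2 for lost and 18.4 for kept peaks.

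The share varied more with the strength of the control H3K27ac peak than with that of the H3K9cr peak. By quartile of the control H3K27ac peak, from weakest to strongest, the lost sites had crotonate H3K27ac at 36.7, 62.4, 89.8 and 95.3%, and the kept ones at 58.0, 79.1, 97.9 and 99.9%. With H3K9cr deciles 1 to 4 crossed with H3K27ac quartiles, the lost sites had the lower share in 16 of 16 strata. The exact intervals of lost and kept peaks did not meet in H3K27ac quartiles 2 and 3. In quartile 4 they overlapped at each of these deciles, as at decile 1 with 90.1% for lost and 92.3% for kept peaks. In quartile 1 they overlapped at deciles 2 to 4, where the lost sites numbered 89, 20 and 5. Weighted by decile of control H3K27ac, the kept peaks came to 91.6% and the difference to −10.1 points. The 771 sites without crotonate H3K27ac accordingly had weaker H3K27ac in control, with a median percentile of 42.3, a fold of 4.86 and a width of 693 bp, against 63.8, 8.16 and 1583 bp at the 3391 others. Their H3K9cr peaks were much alike, with median folds of 4.01 and 4.22 and widths of 352 and 413 bp.

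**Figure D3:**
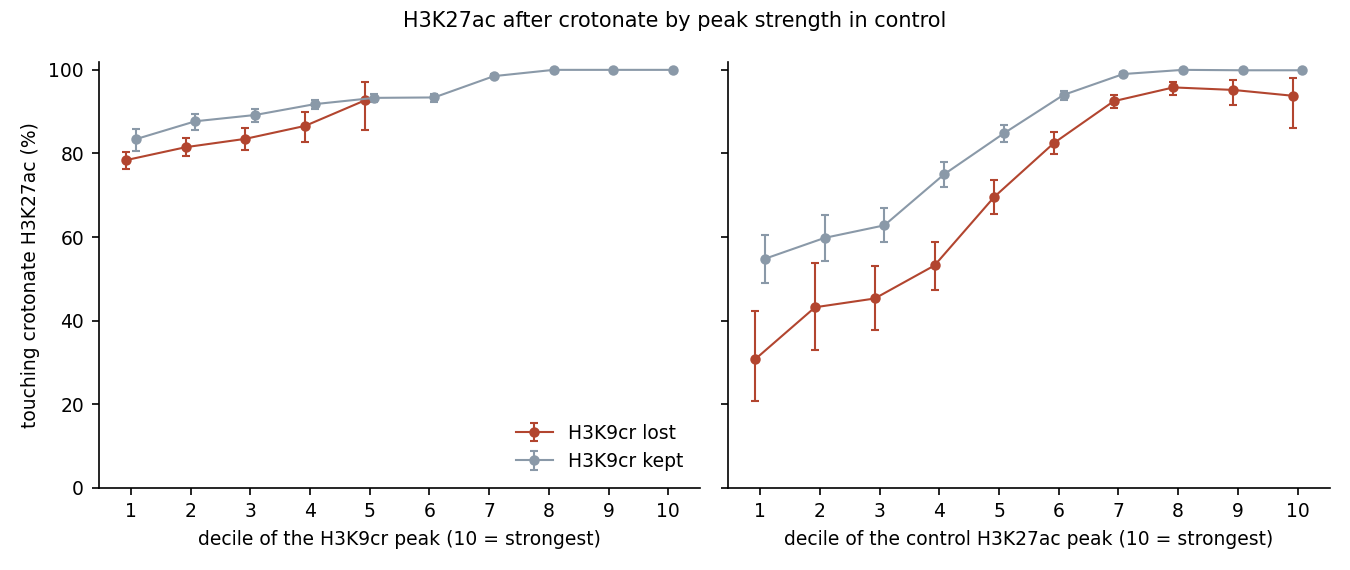
Percent of lost and kept H3K9cr peaks that touched crotonate H3K27ac, by decile of the H3K9cr peak in its control list (left) and by decile of the control H3K27ac peak touched (right), with exact 95% intervals and groups of at least 20 peaks shown. The lost sites run from 78.4% to 92.7% over the first 5 H3K9cr deciles and from 30.8% to 95.8% over the first 8 H3K27ac deciles, below the kept peaks at each H3K27ac decile.

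Counted from the side of H3K27ac, peaks that touched lost H3K9cr alone lay between those with kept H3K9cr and those with none. Of 3472 control H3K27ac peaks whose only H3K9cr was lost, 2841 (81.8%) touched a crotonate H3K27ac peak. The share was 94.2% of 23642 with kept H3K9cr alone, 99.3% of 452 with both kinds and 54.2% of 24214 with no H3K9cr. By quartile of H3K27ac strength, peaks with lost H3K9cr alone were kept at 37.9, 65.1, 92.5 and 100%, and peaks with no H3K9cr at 38.0, 61.8, 88.9 and 100%. The intervals of lost and of no H3K9cr overlapped in the weakest quartile (32.0 to 44.1% and 37.1 to 38.9%) and in the second (61.9 to 68.2% and 60.8 to 62.8%), and did not meet in the third (91.3 to 93.6% and 87.8 to 90.0%), where peaks with lost H3K9cr were also the stronger and wider, with a median percentile of 62.1 against 56.8 and a width of 1465 against 1173 bp. Peaks with kept H3K9cr alone stood at 51.4% (48.5 to 54.3%) in the weakest quartile and 97.7% in the third.

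**Figure D4:**
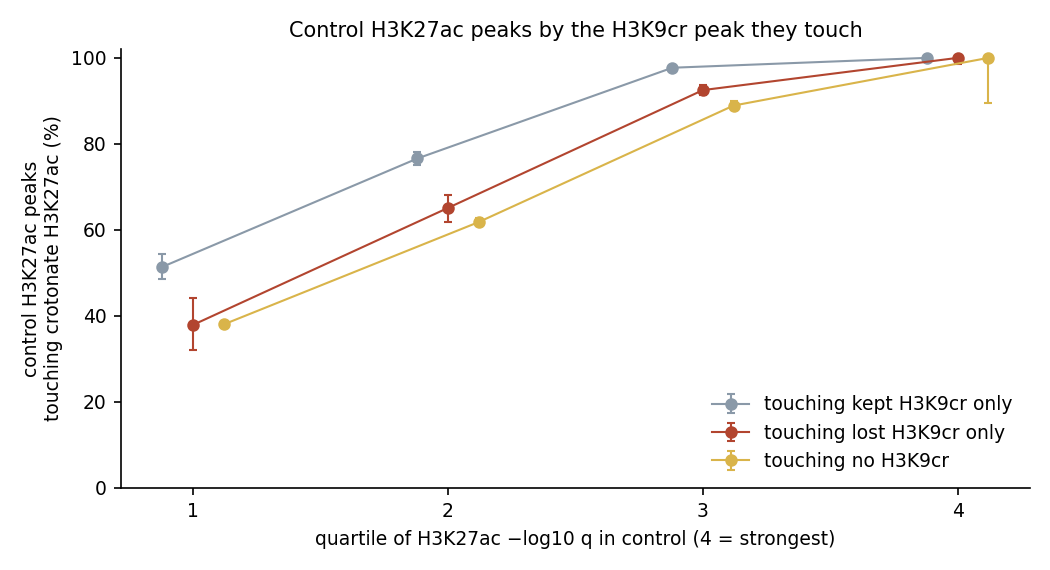
Percent of control H3K27ac peaks that touched a crotonate H3K27ac peak, by quartile of their −log10 q in the control list, for peaks touching kept H3K9cr only, lost H3K9cr only or no H3K9cr, with exact 95% intervals. The line for lost H3K9cr (37.9, 65.1, 92.5 and 100%) runs close to that for no H3K9cr (38.0, 61.8, 88.9 and 100%) and stands above it in the third quartile.

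Some H3K27ac peaks held both a lost and a kept H3K9cr peak. At 478 lost sites (11.5%) the H3K27ac peak also touched kept H3K9cr, and 421 of these (88.1%) had crotonate H3K27ac, against 2970 of the 3684 others (80.6%). Of the 771 sites with no crotonate H3K27ac at the site itself, 173 (22.4%) sat in a control H3K27ac peak that touched crotonate H3K27ac elsewhere along its length.

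H3K4me3, the promoter mark, was nearly absent from the lost sites. It was called at 21 (0.505%) in control and 20 (0.481%) in crotonate, against 61.2% and 61.1% of kept H3K9cr peaks. The gap was smaller among weak peaks: in the 3 weakest deciles kept peaks had control H3K4me3 at 2.28% and lost sites at 0.190%. H3K4me3 was called in control alone at 9 lost sites and in crotonate alone at 8. Over the whole H3K4me3 list, counted by peak and not by site, 2.81% of control peaks had no crotonate counterpart. The control H3K4me3 peaks at the 9 sites ranked low, at percentiles 0.993 to 17.5 of that list, so the 2 shares are not of like peaks. The 12 sites with H3K4me3 in both treatments include one 1248 bp from Lsm11, where the H3K4me3 pileup was 125 in control and 97 in crotonate.

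H3K27me3 overlapped few sites, and H3K27ac was kept less often where it did. It was called at 191 sites (4.59%) in control and 119 (2.86%) in crotonate, with 110 in both, 81 in control alone and 9 in crotonate alone. Kept H3K9cr peaks had it at 16.4% and 11.4%, and those of the 3 weakest deciles at 5.06% and 3.07%. Over the whole list, counted by peak and not by site, 25.6% of control H3K27me3 peaks had no crotonate counterpart. Lost sites with control H3K27me3 had crotonate H3K27ac at 82 of 191 (42.9%, interval 35.8 to 50.3%), and those without it at 83.3% of 3971 (82.1 to 84.5%). By quartile of control H3K27ac the sites with H3K27me3 stood at 22.9, 33.7, 63.2 and 60.0% (the last of 5 sites), and those without at 39.0, 65.3, 90.5 and 95.6%. The share was also the lower with H3K27me3 among kept H3K9cr peaks, at 89.1% (88.1 to 90.0%) with it and 96.8% (96.6 to 97.1%) without. The 110 sites with H3K27me3 in both treatments lay in wide H3K27me3 peaks, with a median of 4247 bp and percentile 85.8, and the 81 others in peaks of 963 bp and percentile 59.2.

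The lost sites were mostly intragenic or intergenic and rarely at gene ends. Within 1 kb of an annotated end of a protein-coding gene lay 142 sites (3.41%), in gene bodies 2190 (52.6%), and outside both 1830 (44%). The kept peaks divided as 45.7, 32.1 and 22.2%. Kept peaks of the 3 weakest H3K9cr deciles divided as 5.90, 59.0 and 35.1% and lost sites there as 3.41, 53.5 and 43.1%, so the contrast at gene ends was smaller among peaks of like strength, while the larger share outside genes was still seen. Put the other way, 1.30% of control H3K9cr peaks with H3K27ac at gene ends were lost, 22.4% of those in gene bodies and 25.9% of those outside. H3K27ac was called after crotonate at 74.6, 81.2 and 82.3% of the lost sites in these places. Of 3989 sites on chromosomes other than 18, which the table of starts does not hold, 52 (1.30%) lay within 1 kb of a listed transcription start, 86.4% lay over 10 kb away and 34.2% over 100 kb away. Among kept peaks 48.7% lay over 10 kb away.

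All 19 autosomes held lost sites. Their share among H3K9cr peaks with H3K27ac ran from 11.4% on chromosome 19 (98 sites) to 19.1% on chromosome 1 (347 sites). The share that had crotonate H3K27ac ran from 76.5% on chromosome 6 to 89.0% on chromosome 16.

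The strongest lost sites that had H3K27ac after crotonate lay away from promoters. The first (chr17:31355338-31356859), 4629 bp from Slc37a1, a sugar-phosphate transporter, was 1522 bp wide, with an H3K9cr pileup of 73 and fold of 15.6, and its H3K27ac pileup was 86 in control and 28 in crotonate. A site of equal H3K9cr strength (chr4:104331704-104333469) lay in the body of Dab1, the intracellular adaptor of Reelin signalling, with H3K27ac pileups of 61 and 28. Next came a narrow site, 339 bp wide and 5932 bp from Enc1, an actin-binding protein of the nervous system. It had an H3K9cr pileup of 78 and H3K27ac pileups of 29 and 26. Within its own list the H3K27ac peak stood at percentile 85.1 in control and 68.3 in crotonate at Slc37a1, at 77.2 and 70.7 at Dab1, and at 59.3 and 68.7 at Enc1.

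The widest lost site of all, 2278 bp (chr12:54286737-54289014), lay 82863 bp from Egln3, a prolyl hydroxylase that acts on hypoxia-inducible factors. It had an H3K9cr pileup of 72, H3K27ac pileups of 71 and 27, and control H3K27me3 with no crotonate counterpart. The next in H3K9cr strength lay in Slc8a2, a sodium-calcium exchanger, and in 6430548M08Rik. With them came sites 134751 bp from Car8, a catalytically inactive relative of carbonic anhydrases, and 9575 bp from Prag1, a pseudokinase. The H3K9cr pileups of these sites were 67 to 72 and their H3K27ac pileups 38 to 68 in control and 16 to 30 in crotonate. The Slc8a2 site also had H3K4me3 in control and not in crotonate. The 4 next widest sites were 2255, 2060, 1997 and 1940 bp wide. In this order they lay in Aff1, a part of the super elongation complex, 290382 bp from Arl4a, at the end of 4933427D14Rik and 29911 bp from Tmem179. H3K27ac was called at each of these sites after crotonate.

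Among the strongest sites without crotonate H3K27ac, 5 of 8 had carried H3K4me3 in control, against 10 of all 771 such sites (1.30%). Control H3K4me3 also went with H3K9cr strength among kept peaks, at 25.4% in the fifth, 55.8% in the sixth and 86.6% in the seventh decile. Lost sites had it less often, at 6.25% of 96 in the fifth decile and 33.3% of 6 in the sixth. Of the 8 strongest sites with crotonate H3K27ac, the one in Slc8a2 alone had it. The part of H3K9cr strength in the 5 of 8 was not tested. The strongest of all lost sites, with an H3K9cr pileup of 138 and a fold of 29.3 over only 308 bp (chr11:45926711-45927018), was the one near Lsm11, a part of the U7 particle that processes histone mRNA. Its control H3K27ac pileup was 47, and no crotonate H3K27ac or H3K9cr peak touched it, although H3K4me3 was called in both. Other sites lay 8291 bp from Cox8b, a cytochrome c oxidase subunit, in Slc20a2, a phosphate transporter, and in Pip5k1b, a phosphoinositide kinase. A further site lay 74065 bp from Lca5, which encodes the ciliary protein lebercilin. In this order the sites had H3K9cr pileups of 84, 66, 53 and 48 and control H3K27ac pileups of 21, 23, 18 and 41. Each of these 4 had H3K4me3 in control and none in crotonate, so that no active mark measured here was called there after the treatment. The other 3 lay in Cadps, which primes dense-core vesicles, with H3K27me3 in both treatments, in Cngb1, a channel subunit of rod photoreceptors, and 8882 bp from Nkd1, an inhibitor of Wnt signalling.

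At the other end, lost H3K9cr could lie in the strongest H3K27ac peaks of the crotonate list. A site of 332 bp lay 66793 bp from Sall3, a zinc-finger transcription factor, with an H3K9cr pileup of 17 in an H3K27ac peak of pileup 223 in control and 159 in crotonate. A site 42571 bp from Gm5148 had an H3K9cr pileup of 16 and H3K27ac pileups of 128 and 145. Sites in Tmed10, a cargo receptor of the secretory pathway, in Spsb4 and in Maml2, a coactivator of Notch, had H3K9cr pileups of 16, 22 and 20 and crotonate H3K27ac pileups of 144, 137 and 132. All 5 were weak H3K9cr peaks, at percentiles 5.87 to 14.0 of their list, and lay between 27 and 2667 bp from a crotonate H3K9cr peak.

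H3K27me3 in crotonate alone was rare. The strongest of the 9 such sites lay in Cfap99, Notch2, Slc35d1, Disp3 and Marchf3. At the site in Notch2, a receptor of the Notch pathway, H3K27ac was called in both treatments with pileups of 24 and 29. At the site in Slc35d1, a nucleotide-sugar transporter, they were 25 and 13. Close to that Notch2 site (chr3:98107016-98107483) lay another lost site of the gene (chr3:98105320-98106648). This neighbour had H3K27me3 in both treatments and no crotonate H3K27ac. The sites in Cfap99, Disp3 and Marchf3 had no crotonate H3K27ac. A site 10870 bp from Hes5, a Notch effector of neural progenitors, was chosen for mention after its values were seen: it lay outside genes (chr4:154948506-154949756) and had H3K27me3 in both treatments, an H3K9cr pileup of 62, and H3K27ac pileups of 44 and 16.

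Lost sites were spread thinly over many genes. A protein-coding gene with its 1 kb flanks held a lost site in 1557 of the 13105 genes with an H3K9cr peak that touched H3K27ac (11.9%). Of these, 1076 held 1, 446 held 2 to 4, and 35 held 5 or more. Genes with a lost site were long, with a median of 105 kb against 22.2 kb for genes with such peaks and none lost. In 129 genes every such peak was lost, and in 113 of them there was only 1 to lose.

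The gene with most lost sites was Elmo1, which with Dock proteins activates the GTPase Rac in cell migration and engulfment. It is read on the plus strand from position 20090507 of chromosome 13 (GRCm38.p6), and 9 of its 16 H3K9cr peaks with H3K27ac were lost. The 9 sites were 262 to 915 bp wide, with H3K9cr pileups of 18 to 31, all in the gene body and 42878 bp or more from either end of the gene. H3K27ac was called after crotonate at 7 of the 9. Its pileup in control and crotonate was 47 and 39 at each of the first 2 sites, which share an H3K27ac peak, 53 and 36 at the third and 54 and 19 at the fifth. The sixth had 57 and 41, the seventh 56 and 19, and the ninth 34 and 22. Within its own list the H3K27ac peak stood at percentiles 71.4 and 77.6 at the first 2 sites, 65.0 and 71.3 at the third and 74.5 and 57.4 at the fifth. It stood at 75.7 and 79.3 at the sixth, 75.3 and 57.4 at the seventh, and 61.8 and 62.5 at the ninth. The fourth, with a pileup of 18 in control, and the eighth, with 56, had no crotonate H3K27ac peak. The eighth lay in the same control H3K27ac peak as the seventh. The H3K9cr peak at the first listed start of Elmo1 was kept.

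**Figure D5:**
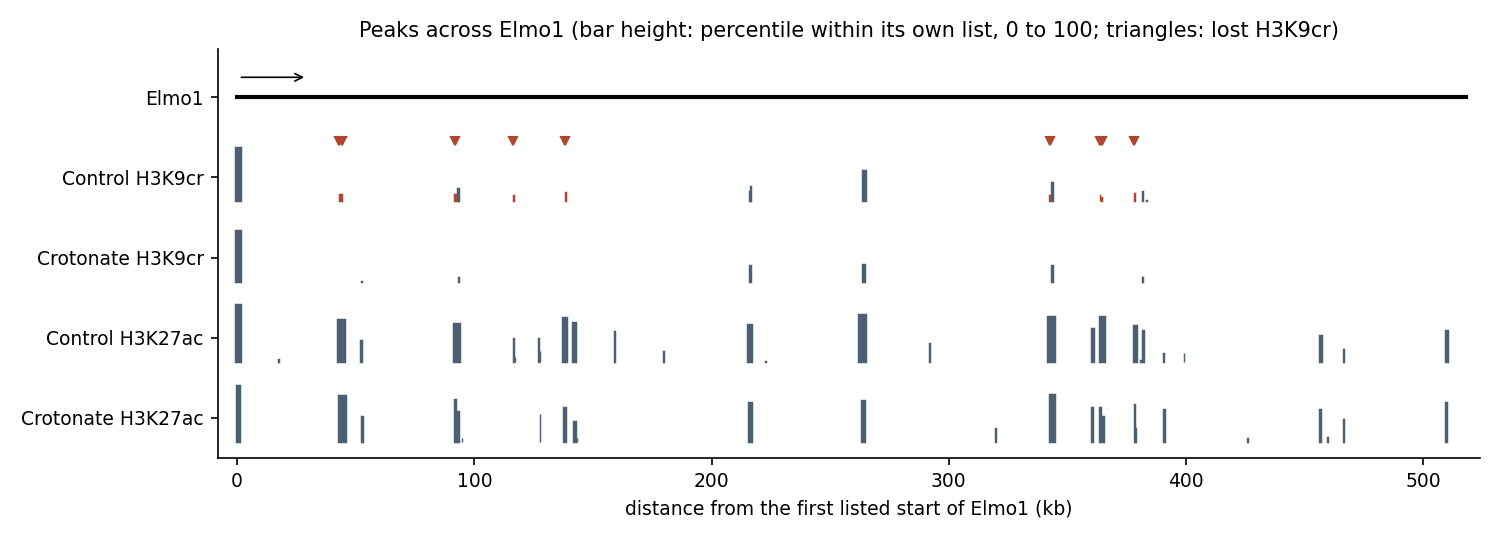
Peaks of H3K9cr and H3K27ac in control and crotonate across Elmo1, by distance in kb from the first listed start, with each bar as wide as its peak and as high as its percentile by −log10 q within its own list, so that heights rank peaks inside a library and not between libraries, and triangles over the 9 lost H3K9cr sites. The lost sites lie inside the gene over H3K27ac peaks, and 7 of the 9 have a crotonate H3K27ac peak at the site.

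Other genes rich in lost sites were Frmd4a, a scaffold of cell polarity (8 of 22 H3K9cr peaks, 4 with H3K27ac after crotonate), and Nav2, a neuron navigator protein (8 of 26, 8 with H3K27ac). Cpvl, a carboxypeptidase, had lost 7 of 8, Maml2 7 of 25, Ralgps1, an exchange factor for Ral, 7 of 14, and Sipa1l2, a Rap GTPase activator, 7 of 11. H3K27ac was called after crotonate at 6, 6, 7 and 4 of these sites. Arhgap26, a GTPase-activating protein with 6 of 30, was the first by name of 12 genes with 6. The genes thus ran from Nav2 and Ralgps1, where every lost site had H3K27ac after crotonate, to Frmd4a and Sipa1l2, where 4 of 8 and 4 of 7 did.

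The gene lists that follow are described by their counts beside those of all genes. Over all genes 2332 of 20724 H3K9cr peaks with H3K27ac in genes and their flanks were lost (11.3%), and 22.4% of the 9778 in gene bodies away from the ends. Of these 2332, 1885 (80.8%) had H3K27ac after crotonate, which is the share to set beside the counts of each list. Neuronal genes had lost 20 of 66, all in gene bodies (37.0% of 54), at 7 of 15 genes with such peaks, and 16 of the 20 had H3K27ac after crotonate. They included the presynaptic adhesion molecule Nrxn3 with 4 of 8, the cell adhesion molecule Ncam1 with 4 of 14, the dendritic microtubule protein Map2 with 3 of 8 and the cortical transcription factor Bcl11b with 2 of 9. The strongest site in Ncam1 had an H3K9cr pileup of 35, and its crotonate H3K27ac pileup was 21. Mapt and Rbfox3 had lost 1 of 3 each.

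Axon guidance genes had lost 22 of 96 (28.8% of the 73 in gene bodies), at 15 of 28 genes, and H3K27ac was called after crotonate at 22 of the 22. The strongest were in Slit3, a repellent ligand, with an H3K9cr pileup of 45, in Sema6d, a semaphorin, with 39, in the co-receptor Nrp2, in the plexin receptor Plxna4, in the netrin receptor Unc5c and in Sema5a, with crotonate H3K27ac pileups of 28, 32, 12, 35, 19 and 24. Genes of this list are long, with a median of 321 kb against 17.5 kb for all genes.

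Notch pathway genes had lost 16 of 75 (30.8% of 52 in gene bodies), at 6 of 23 genes, with H3K27ac after crotonate at 12. Maml2 held 7 of the 16, the receptor Notch2 and the ligand-like Dner 3 each, and the coactivator Maml3, the receptor Notch1 and the ligand Dll3 1 each. At Notch1 the lost site was one of 7 H3K9cr peaks with H3K27ac, 295 bp wide and 225 bp from a crotonate H3K9cr peak, with a crotonate H3K27ac pileup of 41, and at Dll3 and Maml3 no crotonate H3K27ac touched the site.

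Neural stem and progenitor genes had lost 18 of 151 (11.9%, against 11.3% for all genes), or 15.0% of the 120 in gene bodies, against 22.4%, at 6 of 29 genes, and 12 of the 18 had H3K27ac after crotonate. The nuclear factor Nfia had lost 6 of 34, with H3K27ac after crotonate at 3, the RNA-binding protein Msi2 6 of 40, with 5, the glutamate transporter Slc1a3 2 of 5, with 2, and the Hedgehog effector Gli3 2 of 5, with 0. Notch1 and Nfib had 1 each. Egf and Fgf receptor and feedback genes had lost 10 of 67 (24.4% of the 41 in gene bodies). Among them were 4 of 15 in Lrig1, a feedback inhibitor of the Egf receptor, and 2 of 4 in the Fgf-responsive factor Etv1. Egfr itself had lost 1, whose crotonate H3K27ac pileup was 17.

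In Wnt pathway genes 7 of 62 were lost and all 7 had H3K27ac after crotonate, in the ligands Wnt7a (1) and Wnt7b (2), the receptor Fzd3, the co-receptor Lrp5, the nuclear repressor Tcf7l1 and the feedback gene Axin2. The Wnt7a site, with an H3K9cr pileup of 51, had a crotonate H3K27ac pileup of 29. Bmp and Tgfb pathway genes had lost 4 of 51, in Tgfb2, Bmpr1b and Smad3, all with H3K27ac after crotonate, and Shh pathway genes 3 of 31, of which the site in Gli2 had it and the 2 in Gli3 did not. Astrocyte genes had lost 6 of 40, with H3K27ac after crotonate at Aldoc, Sparcl1 and Slc4a4 and not at Slc1a2, Nfix or Aldh1l1. Oligodendrocyte lineage genes had lost 2 of 41, in Ptprz1 and at the end of Gpr17. In gene bodies the shares lost were 20.6% of 34 (Wnt), 16.0% of 25 (Bmp and Tgfb) and 15.8% of 19 (Shh). They were 20.8% of 24 for astrocyte genes and 4.17% of 24 for oligodendrocyte lineage genes, against 22.4% for all genes.

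Genes of acyl-CoA metabolism had lost 5 of 41 (35.7% of the 14 in gene bodies, against 22.4% for all genes). Of the 5, 4 lay in Acss1, the mitochondrial acetyl-CoA synthetase, and 1 in Acsl6, a long-chain acyl-CoA synthetase. All 5 had H3K27ac after crotonate, and the strongest Acss1 site, 1684 bp wide, had pileups of 48 for H3K9cr and 38 for crotonate H3K27ac. Polycomb genes had lost 7 of 55 (28.0% of the 25 in gene bodies), with 4 of 7 in Jarid2, an accessory subunit of Polycomb repressive complex 2, 2 in Phc2 and 1 in Ezh1. Crotonylation machinery genes had lost 1 of 35 (9.09% of the 11 in gene bodies), in the acetyltransferase gene Kat6a. Cell cycle inhibitor genes had lost 1 of 24, in Rb1, and cell cycle and DNA replication genes 3 of 31, in Mcm6 and Cdc6. In gene bodies the cell cycle inhibitor genes had lost 1 of 1 and the cell cycle and DNA replication genes 2 of 3. Ribosomal protein genes had lost 0 of 35. All but 1 of their peaks lay at gene ends, where 1.30% of all such peaks were lost.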

How the data were processed

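Native chromatin immunoprecipitation libraries of 4 histone marks in control and crotonate cells were used as peak lists, 1 library each. The submitters' processing notes name Bowtie2 2.4.1, MACS2 2.2.7.1 and the build GRCm38. Calling settings and the use of the inputs were not given in the sources used here. Pileup, as deposited for each peak, is the coverage signal at its summit, and the deposited fold enrichment the ratio to local background, both per the file headers. The −log10 p-value and −log10 q-value are also the authors' own, per the file headers. Peak values were used here to describe and rank peaks within a list, so pileups of different lists are not on a shared scale. Positions count from 1.

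Overlaps of at least 1 bp, deciles of −log10 q within a list and exact (Clopper-Pearson) 95% intervals were computed with Python 3.11.15, pandas 2.3.3 and scipy 1.17.1, and figures drawn with matplotlib 3.10.9. The overlap routines were tested on simulated intervals. Intervals treat peaks as independent, which neighbours are not, and they cover counting error only, and no molecular identifiers are mentioned for the reads. Percentiles run from 0 for the weakest peak of a list. A gene takes a site that touches its body or 1 kb flanks (RefSeq, GRCm38.p6, without strand). Transcription starts and promoter bases came from a RefSeq table with strand that holds no chromosome 18. With 1 library per group there was no test and no p-value.

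The sites and the 16 gene lists were chosen with earlier results of these data known. Sites were named by rule: the 8 strongest with and the 8 without crotonate H3K27ac, the 5 widest, the 5 with strongest crotonate H3K27ac, the 5 nearest each side of the threshold, the 5 strongest with H3K27me3 in crotonate only, the 8 genes with most sites, and up to 6 genes of each list. Some sites that the rule names are not reported here. The inputs were not used here. Alternatives for overlap, calling limit, list length and gene window were computed.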

Additional observations from a re-analysis of the deposited data

How the results depend on the processing

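No paired analysis was possible because each mark has 1 library per treatment and no test was made. Requiring 50% of both peaks for shared H3K9cr gave 6756 lost sites in place of 4162. The share of lost sites with crotonate H3K27ac (81.5%) moved to 72.5% when 50% of the site had to be covered, 74.9% by the summit, 74.2% with −log10 q of at least 5 in all lists, 82.7% with that limit for control H3K9cr alone, 78.2% with equal numbers of peaks, 85.2% when the touched control H3K27ac peak was followed, and 87.6% when H3K27ac within 1 kb counted. The difference from kept peaks (−5.45 points) was negative under every alternative and moved to −10.1 with deciles of control H3K27ac, −9.31 with H3K9cr decile and H3K27ac quartile together, and −14.1 without strata. The share at gene ends moved to 2.02% with windows of 500 bp and 13.6% with 5 kb, and that outside genes to 39.2% with 5 kb. When peaks within 1 kb counted, H3K27me3 stood at 9.63% in control and 7.38% in crotonate and H3K4me3 at 1.73% in each. Merging control H3K9cr peaks within 1 kb gave a median width of 445 bp. The other 13 of 32 alternatives stayed within the interval of the main value or, for counts, within 1.5 times. The summit and the joint strata were added after the data were seen. Read depth is unknown, so a lost peak may lie just under the calling limit of the crotonate list.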
